A study of Mus musculus with 17 samples.

Results

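The neighbourhoods of 5 serpin genes were examined in accessible chromatin of mouse macrophages. Serpina3b, Serpina3f, Serpina3g and Serpina3n lie in 1 cluster on chromosome 12, and Serpinb2 lies in the clade B cluster on chromosome 1. Members were the peaks within 20 kb of the 5 gene bodies (GENCODE annotation, GRCm38, the build also called mm10). All 5 genes are on the plus strand: Serpina3b (ENSMUSG00000066364.2, chr12:104127996-104139545), Serpina3f (ENSMUSG00000066363.12, chr12:104214544-104221129), Serpina3g (ENSMUSG00000041481.16, chr12:104236245-104241939), Serpina3n (ENSMUSG00000021091.8, chr12:104406729-104414329) and Serpinb2 (ENSMUSG00000062345.10, chr1:107511423-107535478). The peaks numbered 148 of 808470 peaks in all 17 deposited lists. Merged across lists they made up 22 of 99504 sites, of which Serpinb2 and Serpina3g had 7 each, Serpina3f 6, Serpina3b 4 and Serpina3n 3, with 5 sites lying between Serpina3f and Serpina3g counted for both. When every list was cut to its best 24389 peaks, the length of the shortest list, 59 of 414613 peaks and 7 of 34158 consensus sites (merged peaks seen in at least 2 lists) remained.

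Serpins are serine protease inhibitors that act as suicide substrates: the protease cuts the reactive centre loop and is trapped in a covalent complex. The mouse Serpina3 genes arose by repeated duplication where humans have a single SERPINA3 gene, which encodes the acute-phase protein alpha-1-antichymotrypsin. Serpina3n is the best studied mouse counterpart, a secreted inhibitor of cathepsin G and granzyme B that rises in inflammation. Serpina3g (Spi2A) is an intracellular inhibitor of cysteine cathepsins and is induced in activated leukocytes. Serpina3f and Serpina3b are close relatives of less settled function. Serpinb2 encodes plasminogen activator inhibitor 2, one of the transcripts most strongly induced by LPS in macrophages, and inhibits urokinase.

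ATAC-seq had been run on 17 samples of bone marrow-derived macrophages (BMDMs) from male mice aged 6 to 12 weeks. They were grown for 7 days in medium conditioned by L929 cells. The wild-type (WT) samples came from littermates of the KO mice. The KO samples came from mice with a whole-body deletion of Nur77, the nuclear receptor encoded by Nr4a1. The deletion was made by crossing a loxP allele of Nr4a1 with CMV-Cre mice before the Cre was bred out (the labels call this genotype cre). The paper gives C57Bl6/J as the strain of the CMV-Cre mice and names none for the loxP mice or the donors. Cells received no LPS (0 h) or 100 ng/ml LPS for 1 h or 18 h, with 3 samples per group apart from WT at 1 h, which had 2, of which 1 is labelled replicate 1-2. The labels do not say whether replicates were separate animals, so the spread between samples may be partly technical.

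Depth was recovered from the lists as the background level of reads. It ran from 0.382 to 9.75 reads per kb, with medians of 5.62 in WT and 1.53 in KO, so genotype and depth moved together over all lists. At 1 h they did not, with depths of 0.382 and 1.61 in WT and 4.14, 0.593 and 1.22 in KO. WT 1 h replicate 1-2 was the shallowest list and KO 18 h replicate 1 had far narrower peaks than the rest, down to 66 bp. Of 8 macrophage marker genes, all had a promoter peak in 12 to 17 lists. Defining markers of other cells had none in any list for 6 of 8 neutrophil, 7 of 9 T and B cell and 2 of 6 fibroblast and endothelial genes. The exceptions included Cd3d and Cdh5 in 17 lists each, S100a8 in 15, Col1a1 in 14 and Camp and Ms4a1 in 10 each, and their part in the results was not tested. Fewer cells of a type and less open chromatin per cell cannot be told apart in such bulk samples. The promoter of Nr4a1, the targeted gene, had a peak among the best 24389 in every list at 0 h and 1 h of both genotypes, and at 18 h in 1 of 3 WT and 0 of 3 KO lists. Counting peaks of any rank, all 3 WT lists and none of the 3 KO lists at 18 h had one, and every list at 0 h and 1 h had one.

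Sites are named by the distance of their summit from the start of the nearest member gene. Each was scored in each list by its rank, as log2 of 24390 over the rank, so that 1 unit stands for a doubling of how near a peak stood to the top of its list, and 0 for no peak among the best 24389. A second measure, the relative pileup, is the number of reads at the summit divided by a size factor from the 10416 sites found in every list, and was read from the deposited lists at any rank. Because the genes were picked with results of these data known, and the rule ranks their peaks between the very groups compared, the differences below are descriptions. No p-value is attached to a member. The word called means only that a site passed the criterion applied to all 34158 sites alike.

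The sequences of 4 sites are given first, 3 related elements that the results turn on and Serpina3b +3.2 kb, which was called in the opposite genotype direction. Each window spans 100 bases on either side of the median summit, read from GRCm38, 5′ to 3′. Capitals mark matches to the AP-1 motif TGACTCA on either strand, or, in the last window, to the C/EBP motif (TTGCNNAA or TTACNNAA, either strand).
Serpina3n +9.1 kb, chr12:104415712-104415912, plus strand: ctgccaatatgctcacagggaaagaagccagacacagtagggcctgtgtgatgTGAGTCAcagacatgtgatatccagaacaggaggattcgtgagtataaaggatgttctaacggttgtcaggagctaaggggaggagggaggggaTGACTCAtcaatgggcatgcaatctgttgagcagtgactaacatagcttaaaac
Serpina3b −3.8 kb, chr12:104124071-104124271, plus strand: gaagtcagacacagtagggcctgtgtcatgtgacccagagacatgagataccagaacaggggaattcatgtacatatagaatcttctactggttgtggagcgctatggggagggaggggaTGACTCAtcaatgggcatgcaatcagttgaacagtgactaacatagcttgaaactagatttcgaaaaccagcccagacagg
Serpina3g +20.4 kb, chr12:104256545-104256745, plus strand: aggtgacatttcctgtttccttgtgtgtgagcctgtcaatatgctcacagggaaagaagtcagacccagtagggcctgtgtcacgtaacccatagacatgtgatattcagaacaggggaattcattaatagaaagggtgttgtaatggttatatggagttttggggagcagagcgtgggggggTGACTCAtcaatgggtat
Serpina3b +3.2 kb, chr12:104131137-104131337, plus strand: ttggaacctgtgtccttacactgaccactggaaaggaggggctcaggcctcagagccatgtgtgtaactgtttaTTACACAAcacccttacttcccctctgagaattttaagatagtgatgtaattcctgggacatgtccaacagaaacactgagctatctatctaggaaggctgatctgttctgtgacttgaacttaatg
AP-1 factors are dimers of Fos and Jun family proteins that are induced within minutes of LPS. TGACTCA occurred in 16.2% and the C/EBP motif in 16.9% of all 34158 consensus sites in windows of the same length. The first 3 windows resembled each other. Serpina3n +9.1 kb and Serpina3b −3.8 kb were identical at 83.7% of 178 aligned bases, Serpina3n +9.1 kb and Serpina3g +20.4 kb at 79.9% of 169, and Serpina3b −3.8 kb and Serpina3g +20.4 kb at 76.0% of 146. Of the motifs searched, none was found in the window of Serpinb2 −14.4 kb, and no member window held the Nur77 monomer motif AAAGGTCA, present in 1.05% of all sites, the PU.1 motif GAGGAAGT (7.71%), a GAS element (5.61%), an NF-kB motif (4.82%) or the interferon-stimulated element of GAAA, a gap of 2 bases and GAAA (3.64%).

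Presence of a peak among the best 24389 separated the genotypes completely at 1 of the 7 sites, Serpina3n +9.1 kb (chr12:104415333-104416137), intergenic and 1004 bp past the end of Serpina3n. All 9 KO lists had this peak among their best 24389 and none of the 8 WT lists did. In KO it ranked 14588.5, 13391.5 and 13955.5 at 0 h, 9993, 5022 and 8371.5 at 1 h, and 5924.5, 8136.5 and 20003.5 at 18 h. The site was not shut in WT. In 7 of 8 WT lists a peak was deposited there, at ranks from 35206.5 to 59332, and the exception was the shallow WT 1 h replicate 1-2. Relative pileup in WT was 3.31, 4.46 and 3.28 at 0 h, 9.36 in the list with a peak at 1 h, and 5.46, 9.04 and 6.95 at 18 h. In KO it was 25.8, 28.0 and 28.0 at 0 h, 40.5, 62.9 and 45.2 at 1 h, and 58.7, 43.7 and 20.3 at 18 h. The lowest KO value thus stood above the highest WT value, and above the 15.7 that the shallow WT list would have needed to deposit a peak. The mean pileup at 0 h was 27.3 ± 1.27 in KO against 3.68 ± 0.673 in WT, and at 18 h 40.9 ± 19.4 against 7.15 ± 1.8 (SD, 3 lists each).

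**Figure D1:**
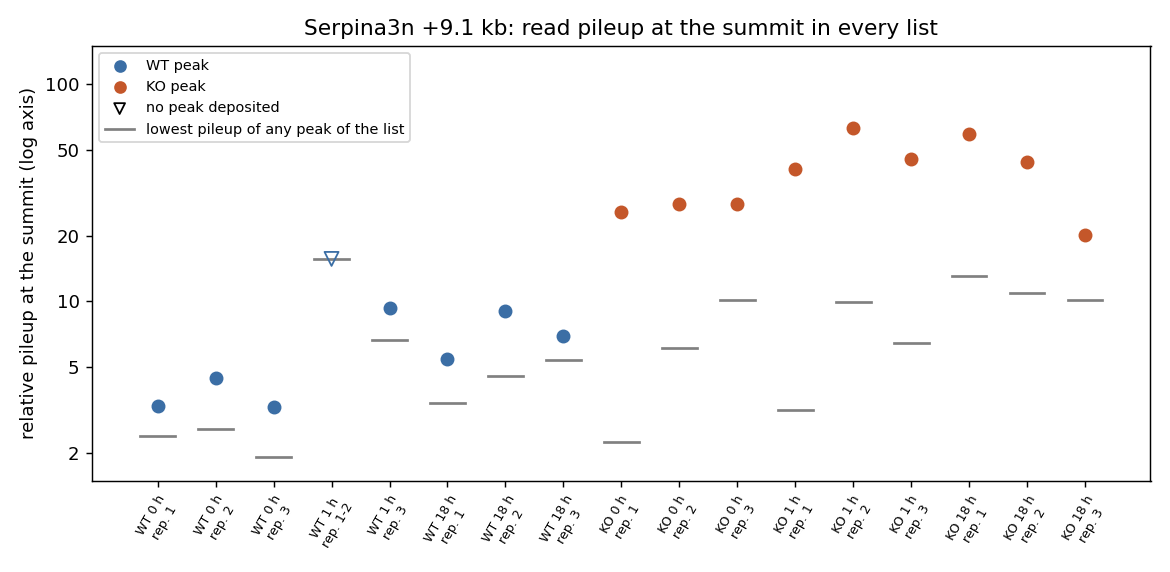
Relative pileup at Serpina3n +9.1 kb (log axis) in each of the 17 lists, blue for WT and orange for KO, with a grey bar at the lowest pileup of any peak in that list and an open triangle where the list has no peak. KO lists lie between 20.3 and 62.9 and WT lists between 3.28 and 9.36.

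The KO minus WT rank score at Serpina3n +9.1 kb was 1.27 averaged over times. Taken by time it was 0.80 without LPS, 1.70 after 1 h and 1.30 after 18 h. It was 1 of the 8 sites in the genome (0.0234% of 34158) that had a peak in every list of one genotype and in none of the other, 6 of them with the peak in KO, and stood 44th among all sites by size of the difference. By this all-or-none criterion 1 of the 7 member sites was called over all times, 2 at 0 h (0.937% of all sites), 1 at 1 h (2.06%) and 1 at 18 h (1.59%). The rank score test called 0 of 7 member sites between genotypes, as it called 0.0% of all sites by the exact permutation test. At an unadjusted p under 0.05 there were 2386 such sites, and limma called 195. The smallest p the design allows, 0.00025, would have had to occur at 171 sites to pass, and occurred at 74. Of these 74 sites, 2 lay within 100 kb of the Serpina3 genes. There, 4 of 11 sites (36.4%) had an unadjusted exact p under 0.05, beside 6.99% of all sites. The share was 14.7% of 34 sites within 1000 kb and 6.78% of 177 within 5000 kb. Member sites are among them, so this describes the region, and a shared cause was not tested. The limma calls included Serpina3n +9.1 kb, but that call was lost when log2 depth entered as a covariate (difference 1.14). In a pair of deep lists, picked for their depth, KO 0 h replicate 1 (7.65 background reads per kb) had a pileup of 25.8 and WT 0 h replicate 3 (9.75) one of 3.28. With 1 list each, the pair cannot tell genotype and depth apart.

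Within KO, Serpina3n +9.1 kb was higher after LPS in most lists. Rank scores were 0.80 ± 0.0618 at 0 h, 1.70 ± 0.515 at 1 h and 1.30 ± 0.911 at 18 h (SD, n = 3 each), and the values at 1 h did not overlap those at 0 h, while 1 list at 18 h (0.29) fell below them. The site was not called for a different LPS response of KO and WT. No member site was, beside 0.0% of all sites at 1 h and 0.0% at 18 h. At each time 1227 sites had an unadjusted exact p under 0.05 and limma called 67 and 13.

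Serpina3b had 2 sites with a peak among the best 24389 in some WT lists and in no KO list. At Serpina3b +3.2 kb (chr12:104130618-104131611), in an intron of Serpina3b, 6 of 8 WT lists and 0 of 9 KO lists had a peak among their best 24389. WT rank scores were 0.40, 0.72 and 0.57 at 0 h, 0.00 and 0.31 at 1 h, and 0.34, 0.00 and 0.51 at 18 h. The site was called all-or-none at 0 h, lower in KO. Weaker peaks were deposited in 4 KO lists, with a relative pileup of 9.25 and 13.4 at 0 h and 11.6 and 11.3 at 1 h, against 14.1 to 24.9 in 7 WT lists, so the values did not overlap where both had a peak. The 5 KO lists with no peak could have shown one only above 9.92 to 13.1. At Serpina3b −12.9 kb, in an intron of the neighbouring Serpina3a, 6 of 8 WT lists and 0 of 9 KO lists had a peak at any rank, at a relative pileup of 8.48 to 20.8. Among the best 24389 this peak was held by 3 WT and 0 KO lists, and the KO minus WT rank score was −0.0961. The deepest KO list, KO 0 h replicate 1, would have held a peak from a pileup of 2.25 upward. The same 5 KO lists as above could have shown one only above 9.92 to 13.1. WT 18 h replicate 1, which would have held one from 3.41, had no peak either. The all-or-none criterion at 0 h thus called 1 Serpina3 site higher and 1 lower in KO.

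**Figure D2:**
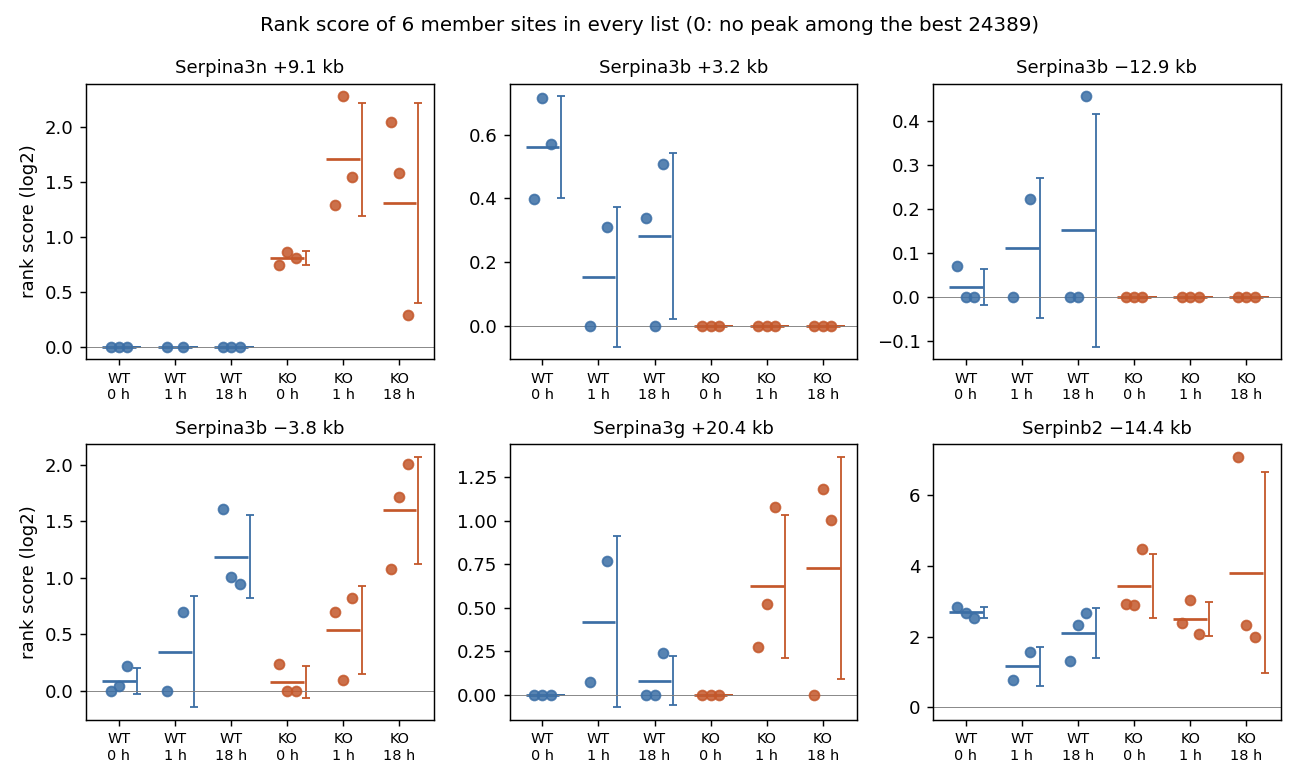
Rank score (log2) in every list at 6 member sites, grouped by genotype and hours of LPS, with group means as bars, SDs as whiskers beside them and 0 for no peak among the best 24389. WT sits at 0 throughout at Serpina3n +9.1 kb and KO at 0 throughout at Serpina3b +3.2 kb and −12.9 kb.

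Both relatives of the Serpina3n element had a called difference after LPS, Serpina3g +20.4 kb at 1 h and Serpina3b −3.8 kb at 18 h, and a difference in timing between the sites was not tested. The 1 h and 18 h comparisons share the 0 h lists, so values are given side by side. At Serpina3g +20.4 kb (chr12:104256290-104257043) none of 6 lists at 0 h, all 5 at 1 h and 3 of 6 at 18 h had a peak among the best 24389. Ranks at 1 h were 23185 and 14302.5 in WT and 20157, 17010.5 and 11553 in KO. Relative pileup in WT was 3.47 to 4.83 at 0 h, 15.7 and 29.4 at 1 h, and 11.9 to 17.8 at 18 h. In KO it was 5.0 in the list with a peak at 0 h, 21.5 to 35.5 at 1 h, and 35.5 and 32.5 at 18 h, with no peak in the narrow-peak list. Both 18 h values of KO stood above the 3 of WT, and a genotype difference of the response was not called. The rank score difference from 0 h was 0.52 at 1 h, which was called, and 0.41 at 18 h, which was not. Without WT 1 h replicate 1-2, the 1 h difference was 0.70 and was no longer called, since the remaining regroupings allow no p below 0.0125. The call was likewise lost without WT 1 h replicate 3 (0.35), without KO 1 h replicate 1 (0.61) and without KO 0 h replicate 1 or any 1 of the 3 WT lists at 0 h (0.52 each).

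At Serpina3b −3.8 kb (chr12:104123533-104124776), intergenic between Serpina3a and Serpina3b, the score was highest at 18 h. Rank scores at 0 h were 0.00, 0.05 and 0.22 in WT and 0.24, 0.00 and 0.00 in KO. At 1 h they were 0.00 and 0.70 in WT and 0.70, 0.09 and 0.82 in KO, and at 18 h 1.61, 1.00 and 0.95 in WT and 1.08, 1.71 and 2.00 in KO. All 6 lists at 18 h exceeded all 11 earlier lists. The difference was 1.31 at 18 h against 0 h and 0.95 at 18 h against 1 h, both called, and 0.36 at 1 h against 0 h, not called. The call at 18 h against 0 h held when any 1 list was left out, and that at 18 h against 1 h was lost without any 1 of the 11 lists compared (difference 0.78 to 1.12). Relative pileup was already higher at 1 h, at 28.1 in the WT list with a peak and 28.9, 19.8 and 30.7 in KO, against 12.6 to 17.3 in the 6 lists at 0 h. At 18 h it was 34.5 ± 7.99 in WT and 46.1 ± 6.8 in KO, from 14.4 ± 1.8 and 14.5 ± 2.48 at 0 h (SD, n = 3 each).

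By rank score 1 of 7 member sites was called at 1 h against 0 h (22.6% of all sites), 1 of 7 at 18 h against 0 h (14.9%) and 1 of 7 at 18 h against 1 h (13.4%). All-or-none, 1 of 7 was called at 1 h against 0 h (4.69%), 0 at 18 h against 0 h (3.72%) and 0 at 18 h against 1 h (3.84%). With 7 sites, 1 call is 14.3% of them, and nothing particular to the serpin sites is read from these counts.

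Serpinb2 had the best ranked member site and a weak promoter peak that was seen at 1 h. Serpinb2 −14.4 kb (chr1:107496663-107497551), intergenic upstream of the gene, was present in all 17 lists among the best 24389. Ranks were 3379, 3831.5 and 4222 in WT at 0 h, 14417.5 and 8310.5 at 1 h, and 9785, 4867 and 3823.5 at 18 h. In KO they were 3201.5, 3293.5 and 1089.5 at 0 h, 4629, 2993.5 and 5812.5 at 1 h, and 179, 4871 and 6086.5 at 18 h. The rank score differed by −1.23 at 1 h against 0 h and by −0.10 at 18 h against 0 h, neither of which was called, and groups overlapped. KO exceeded WT by 1.26 on average, and by 0.72 without the narrow-peak list KO 18 h replicate 1, which held rank 179. Mean rank scores in KO and WT were 3.43 and 2.68 at 0 h, 2.5 and 1.16 at 1 h, and 3.81 and 2.11 at 18 h. The WT mean at 1 h includes the shallow replicate 1-2, and at 18 h the genotypes overlapped. Serpinb2 −9.2 kb was a weak site, in 11 deposited lists at a relative pileup of 4.21 to 17.7.

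At the Serpinb2 promoter itself, 4 lists held a weak peak with its summit 81 bp before the start, and all 4 were from 1 h: WT replicate 3 (relative pileup 13.4) and KO replicates 1, 2 and 3 (5.78, 16.5 and 11.3). None of the 6 lists at 0 h nor of the 6 at 18 h had it, although WT 0 h replicate 3, the deepest list, would have held a peak from a pileup of 1.93, and the 3 KO lists at 18 h only from 10.2 upward. The remaining list at 1 h, WT replicate 1-2, could not have shown a peak under 15.7. No list had it among its best 24389. The Serpina3f promoter, by contrast, was marked at every time: 11 lists held a peak with its summit 222 bp before the start, 7 of 8 WT and 4 of 9 KO, with a relative pileup in WT of 5.12 to 7.52 at 0 h, 8.02 at 1 h and 10.7 to 13.0 at 18 h. The KO values were 6.5 at 0 h, 14.7 and 17.7 at 1 h and 14.2 at 18 h, and the lowest pileup of any peak in the 5 KO lists without this one was 6.09 to 13.1. Of these, 1 list (KO 1 h replicate 3, rank 23448.5) had it among the best 24389. The Serpina3g promoter had a peak in 2 lists, both WT at 18 h (6.83 and 5.09). The promoters of Serpina3b and Serpina3n, within 1 kb of the start, had none in any list.

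The Serpinb2 and Serpina3f promoters are shown because these peaks lie on them. The sequences are RefSeq's (GRCm38.p6), from 250 bases before to 50 after the start, with capitals at matches to the GAS element TTCNNNGAA, bound by STAT factors, and to the C/EBP motif.
Serpinb2 promoter, chr1:107511173-107511472, plus strand: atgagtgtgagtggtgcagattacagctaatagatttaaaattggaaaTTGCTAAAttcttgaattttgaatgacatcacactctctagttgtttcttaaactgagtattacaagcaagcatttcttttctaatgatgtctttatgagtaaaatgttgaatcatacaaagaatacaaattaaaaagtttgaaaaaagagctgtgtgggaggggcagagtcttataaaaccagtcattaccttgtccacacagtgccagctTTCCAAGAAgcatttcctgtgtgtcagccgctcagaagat
Serpina3f promoter, chr12:104214294-104214593, plus strand: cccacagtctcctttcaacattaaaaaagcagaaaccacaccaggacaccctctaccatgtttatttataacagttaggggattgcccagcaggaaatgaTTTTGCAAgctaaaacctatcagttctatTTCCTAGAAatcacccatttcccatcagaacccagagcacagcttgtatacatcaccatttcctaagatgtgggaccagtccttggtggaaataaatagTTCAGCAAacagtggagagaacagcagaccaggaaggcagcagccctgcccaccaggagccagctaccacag
The GAS letters occur in 8.3% and the C/EBP letters in 18.5% of the 32851 RefSeq promoters of this length. Neither promoter held TGACTCA, an NF-kB motif or the interferon-stimulated element, and the Serpina3g promoter held an NF-kB motif (4.51% of promoters) and a GAS element.

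**Figure D3:**
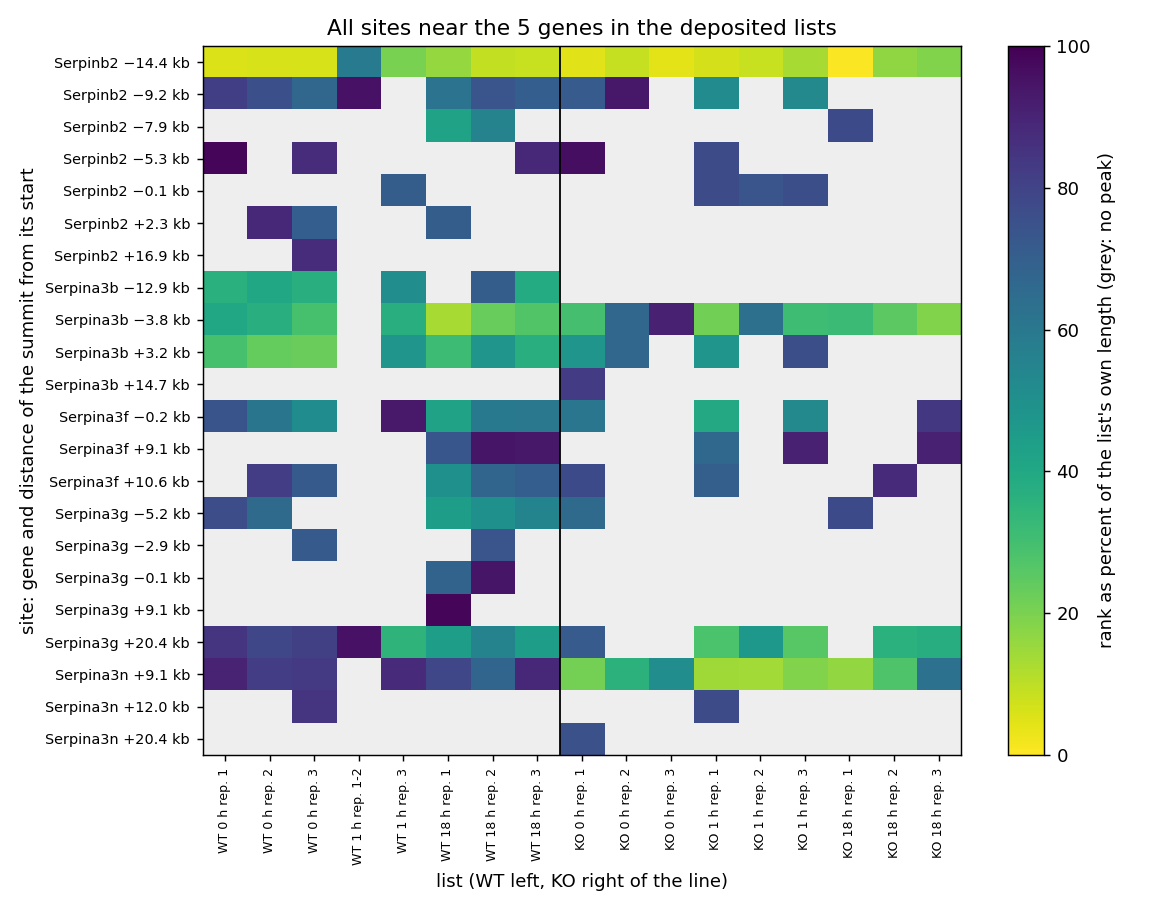
Rank of each of the 22 member sites in each deposited list, as a percent of that list's own length (yellow, top of the list, to purple, its end, grey for no peak), with WT left and KO right of the line. Serpinb2 −14.4 kb is the 1 site present throughout, and Serpina3n +9.1 kb lies at 67.4% to 90.5% of the list in the 7 WT lists with a peak and at 13.8% to 62.1% in KO.

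The resemblance among the 3 Serpina3 sites led to a search, chosen after their values were seen, for further stretches like the 201 bases of Serpina3n +9.1 kb. The cluster was scanned from 100 kb before Serpina3b to 100 kb after Serpina3n on both strands for alignments of at least 150 bases and 70% identity. It held 10 copies. Each was assigned to the nearest Serpina gene or pseudogene of its own strand that ended upstream of it. Strand and side were thus set by the rule. The assigned gene was a Serpina3 gene or pseudogene each time and ended 1233 to 3059 bp away. Of the 14 annotated Serpina3 genes and pseudogenes, 10 were followed by a copy. Serpina3b −3.8 kb is the copy after Serpina3a, and Serpina3g +20.4 kb the copy after the pseudogene Serpina3h. The part of each copy aligned to the TGACTCA of the Serpina3n element, with 12 bases on either side, is given in the direction of its gene, with the 7 aligned bases in capitals.
After Serpina3a, chr12:104124179-104124209, plus strand: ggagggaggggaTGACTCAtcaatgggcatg
After Serpina3b, chr12:104141533-104141563, plus strand: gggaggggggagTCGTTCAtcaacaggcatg
After Serpina3e-ps, chr12:104186393-104186423, minus strand: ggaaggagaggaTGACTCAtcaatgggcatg
After Serpina3f, chr12:104223442-104223472, plus strand: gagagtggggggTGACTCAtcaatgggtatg
After Serpina3g, chr12:104243302-104243332, plus strand: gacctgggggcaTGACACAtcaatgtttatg
After Serpina3h, chr12:104256716-104256746, plus strand: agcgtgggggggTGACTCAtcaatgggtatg
After Serpina3i, chr12:104271665-104271695, plus strand: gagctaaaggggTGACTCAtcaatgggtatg
After Serpina3j, chr12:104322785-104322815, plus strand: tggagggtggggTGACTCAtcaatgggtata
After Serpina3l-ps, chr12:104366726-104366756, plus strand: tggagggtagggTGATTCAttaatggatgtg
After Serpina3n, chr12:104415847-104415877, plus strand: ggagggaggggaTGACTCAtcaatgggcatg
TGACTCA was intact in 7 copies, those after Serpina3a, Serpina3e-ps, Serpina3f, Serpina3h, Serpina3i, Serpina3j and Serpina3n, and altered in the 3 after Serpina3b, Serpina3g and Serpina3l-ps. Each of the 7 copies with the motif overlapped a deposited peak in at least 1 list, and none of the 3 without it did in any of the 17. The copy after Serpina3n was the only one of the 10 with 2 AP-1 matches, the other, TGAGTCA, starting 47 bases before the median summit and the shared one starting 47 bases after it. With 10 copies of common descent this is a description of the sequences and not a test of the motif.

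The 7 copies with TGACTCA differed in how many lists held them. The copy after Serpina3e-ps had a peak among the best 24389 in all 17 lists, that after Serpina3a in 13, that after Serpina3n in 9 and that after Serpina3h in 8. Those after Serpina3f, Serpina3i and Serpina3j had none there, and deposited peaks in 5, 4 and 1 lists. The site with the copy after Serpina3e-ps lies outside the 20 kb windows, with the copy 27990 bp from Serpina3f. Its mean rank score was 2.71 in WT and 3.62 in KO, with a highest WT value of 3.35 and a lowest KO value of 3.16. The KO minus WT difference at that site was 0.937. Among the 10 copies, that after Serpina3n was the one with every KO and no WT list among the best 24389. It was the starting point of the search, chosen with these values known, and only 4 copies had any peak among the best 24389. Reads from near-identical copies can be lost at the mapping quality threshold: 8.79% of 32-base stretches of Serpina3n +9.1 kb, 4.86% of Serpina3b −3.8 kb, 15.8% of Serpina3g +20.4 kb and 24.7% of Serpina3b +3.2 kb occur elsewhere in the genome, against 0.0% of Serpinb2 −14.4 kb. In the gene bodies of Serpina3f and Serpina3g, which no consensus site overlapped, the shares were 28.5% and 31.0%. The gene bodies of Serpina3n and Serpinb2, with shares of 10.8% and 4.57%, were not overlapped by a consensus site either.

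**Figure D4:**
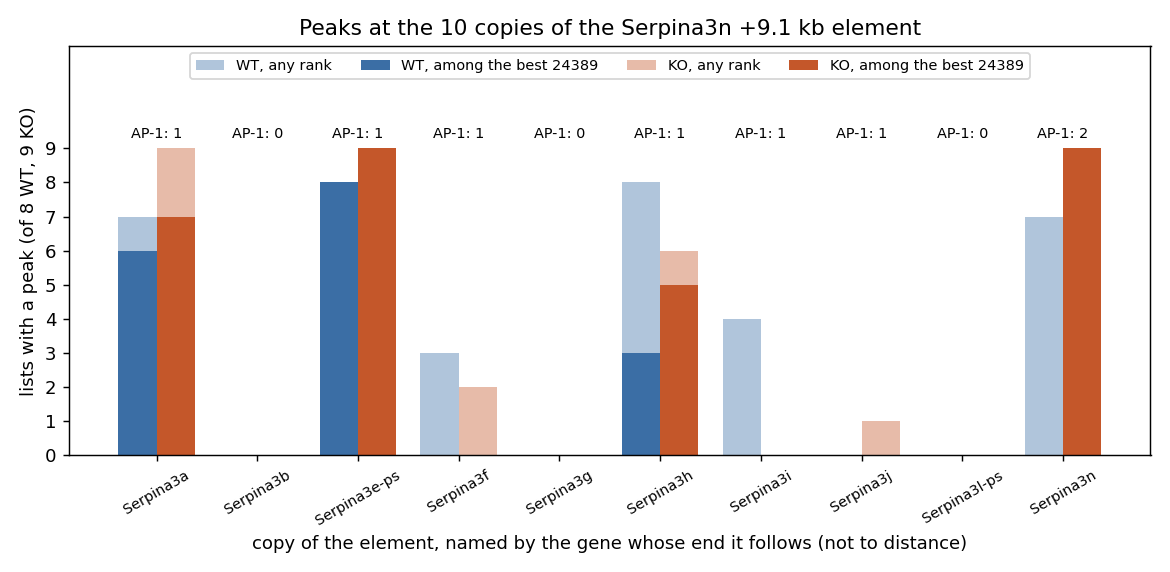
Number of WT (blue, of 8) and KO (orange, of 9) lists with a peak at each of the 10 copies of the Serpina3n +9.1 kb element, dark for peaks among the best 24389 and pale for any rank, with the number of AP-1 matches above. Copies without a match carry no bar, and the copy after Serpina3n is dark for all 9 KO lists and pale for 7 WT lists.

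The sites nearest the edge of the windows show what the 20 kb limit kept. For Serpina3n the farthest site inside lay 12667 bp from the gene and was deposited in 1 list, and the nearest outside lay 54480 bp away, also in 1 list. For Serpina3g the farthest inside was Serpina3g +20.4 kb, 14351 bp past the gene, and the nearest outside the peak at the Serpina3f promoter, 21630 bp away. For Serpinb2 these were the site at −14.4 kb, 13872 bp away, and a peak of 1 list at 21461 bp.

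The genes whose summed rank scores over the 17 lists were most like those of the members give a further description, in which all points share the same libraries. For Serpina3n, Prokr1 (Pearson r = 0.929), Gm47283 (0.905) and Ifi202b (0.872) were most alike. For Serpina3b they were Bace2 (0.871), Slc2a1 (0.866) and Usp18 (0.866), for Serpina3g Ablim1 (0.871), Dapk2 (0.868) and Afap1l2 (0.852), and for Serpinb2 Serpinf1 (0.923), Adamtsl2 (0.920) and Alpk3 (0.901). Serpina3f had no consensus site and was not compared.

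Other serpins, and the proteases and receptors that serpins act on, were counted by genes with at least 1 called site within 20 kb. The background among 21938 protein-coding genes was 13.7% with a higher and 24.6% with a lower site at 1 h, and 10.5% and 15.8% at 18 h. Of the 6 other Serpina3 genes, Serpina3i was higher at 1 h and Serpina3a at 18 h, through the same 2 sites described above, and 0 were lower. Of 13 other Serpina genes, Serpina5 was higher at 18 h through Serpina3b −3.8 kb, and 0 were lower at either time. Of 10 Serpinb genes around Serpinb2, 0 were called. Of 15 other Serpinb genes 0 were higher and 2 were lower at each time, among them Serpinb9, the granzyme B inhibitor, at 1 h (rank score difference −0.71), and Serpinb6a at 18 h (−1.20). Among 11 genes of other clades, Serpine2 (−0.84), Serpinf1 (−0.67) and Serpinf2 (−1.01) were lower at 1 h. At 18 h Serpini2 was higher (0.76) and Serpine2 lower (−0.63). Of 17 proteases and receptors, 5 had a higher and 5 a lower site at 1 h, and 2 and 3 at 18 h. The largest differences were at Plg, the plasminogen gene (2.24 at 1 h and 1.71 at 18 h), Prtn3, proteinase 3 (−2.15 at 18 h), Plaur, the urokinase receptor (1.62 at 1 h), and Ctsb, cathepsin B (−1.62 at 1 h and −1.06 at 18 h). Between genotypes, a site called all-or-none lay near 0.0319% of genes when higher in KO and near 0.00912% when lower, and near none of these other genes.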

How the data were processed

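ATAC-seq uses the Tn5 transposase to insert sequencing adapters into open DNA. Per the study's methods, the authors trimmed reads with cutadapt 2.6, mapped them to mm10 with the snakeATAC pipeline and compared sites with DiffBind 3.0.15 (versions from the submitters' processing notes), and the deposited peak names record a mapping quality of 20, removal of mitochondrial and duplicate reads and a q-value threshold of 0.001. Peaks were called in each sample separately. The deposited lists hold an integer score derived from the q-value, the fold (ratio of pileup to background) at the summit, and p-values and q-values on the −log10 scale. All depend on depth, so the −log10 p-value was compared within a list, to order its peaks, and not between lists. Read counts per site were not used here.

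Entries with the same interval were merged to the best summit. The background level of each list was solved from its fold and p-values, and gave whole reads (within 0.02) for 100% of entries. Lists were cut to 24389 peaks, with ties at the end broken at random (seed 1), and at most 13.9% of a cut list lay in such a tie. Rank scores were compared by two-sided exact permutation tests over lists, stratified by genotype or LPS time, with Benjamini-Hochberg adjustment over all 34158 consensus sites and calls at an adjusted p under 0.05. The all-or-none criterion needs a peak in every list of one group and none of the other. The test code was checked on simulated data. limma 3.58.1 in R 4.3.3 served as an alternative. Members and gene lists were chosen with earlier results of these data known. Written out in full were sites called, sites within 1 kb of a member's start, and the 2 best-ranked sites of each member. For likeness, the 3 genes with the highest r beyond 1 Mb were named, and from each gene list at most 4 genes with the largest difference. The result of 1 gene of these lists is not reported here. Serpinb10 and Serpina3h, annotated as a polymorphic pseudogene and a pseudogene, were not among the protein-coding genes. Python 3.11.15 with numpy 2.4.6, pandas 2.3.3 and scipy 1.17.1 was used.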

Additional observations from a re-analysis of the deposited data

How the results depend on the processing

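A 50 kb window and the restriction to sites in at least 3 lists left every count of called member sites as it was. Ranking by fold gave the same counts over all sites in every comparison and so bears on nothing. With the 10000 best peaks, or with a peak required to cover 50% of a site, each count of called sites became 0, except that all-or-none calls of KO against WT at 1 h stayed at 1, beside 0.972% and 2.7% of all sites. Over all sites the rank score test then called none, while all-or-none calls at 1 h against 0 h were 807 and 343. The cause was not tested. With all deposited peaks the rank score counts for 1 h and 18 h became 0 (0.0% of all 34158 sites at 1 h against 0 h and at 18 h against 1 h, 7168 of them at 18 h against 0 h), as did the all-or-none counts for 1 h against 0 h, KO against WT and KO against WT at 1 h, while KO against WT gave 1 at 0 h (Serpina3b −12.9 kb, beside 0.287% of all sites) and 2 at 18 h (Serpina3b +3.2 kb and Serpinb2 −9.2 kb, beside 4.85%), all lower in KO. Serpina3n +9.1 kb was then called at no time, with a KO minus WT difference of 1.77 (1.27 among the best 24389). Serpina3g +20.4 kb differed by 0.98 at 1 h against 0 h (0.52), and Serpina3b −3.8 kb by 1.00 at 18 h against 0 h (1.31) and 1.03 at 18 h against 1 h (0.95), the values in brackets again being those among the best 24389. A 10 kb window gave 0 at 1 h against 0 h by both criteria, because Serpina3g +20.4 kb lies outside it.

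limma on the rank score, with or without log2 depth, called 0 member sites at 1 h against 0 h (27.0% of all sites without depth and 16.6% with it). Between genotypes it called 1 without depth (Serpina3n +9.1 kb, beside 0.571% of all sites, 0.299% with depth), which was lost with depth as a covariate and with the block (difference 1.14 and 1.19). Same-numbered samples of different groups did not deviate together (mean r = −0.0191 over 35 pairs), and 4 of 16 lists correlated best with their own number. No pairing by number was thus seen in the scores. Whether same-numbered samples share an animal is not stated in the labels. With the replicate block limma called 0 member sites at 1 h against 0 h, and 1 each at 18 h against 0 h and 18 h against 1 h, beside 19.9%, 22.1% and, at 18 h against 1 h, 7177 of all 34158 sites.

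Leaving out 1 list at a time, counts by rank score ranged from 0 to 2 at 1 h against 0 h and from 0 to 1 at 18 h against 1 h. Over all sites these calls ran from 0.0% to 22.6% and from 0.0% to 13.4%. All-or-none counts ranged from 1 to 3 for KO against WT at 1 h (2.06% to 9.74% of all sites) and from 1 to 2 at 18 h (1.59% to 3.81%). Without a list of the groups compared, the smallest p of these exact LPS tests, 1 h against 0 h and 18 h against 1 h, rises from 0.005 to between 0.01 and 0.0167. Chosen after seeing the data, leaving out both doubtful lists gave 0 at 1 h against 0 h, 0 at 18 h against 1 h and 3 all-or-none at 1 h between genotypes, beside 0.0%, 0.0% and 4.68% of all sites, and relative pileup in place of rank changed no rank score count. The KO minus WT difference at Serpina3n +9.1 kb was positive in every setting tried (0.26 with the 10000 best peaks, where that at Serpinb2 −14.4 kb was 1.18). No single-site direction reversed. The lists limit what a missing peak shows: it bounds the pileup only at the lowest value each list deposits.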
